A study of Mus musculus with 10 samples.

Results

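The 10 genes described here, *Atf4*, *Atf3*, *Ddit3*, *Trib3*, *Asns*, *Chac1*, *Sesn2*, *Psat1*, *Phgdh* and *Gdf15*, belong to the response of cells to amino acid deprivation and other stresses, and were taken by symbol from the 15126 genes of the RNA-seq table. All 10 had a row. Their levels were read in 5 AAV8-Control libraries, from livers of male leptin receptor-deficient *db/db* mice aged 10 weeks that had received adeno-associated virus 8 (AAV8) encoding eGFP through the tail vein 5 weeks before. The labels do not say that each library came from a separate mouse. All 5 shared the *db/db* genotype and a viral vector, and the promoter that drove eGFP was not given in the sources used here. Some of the sample labels instead describe cultured primary hepatocytes and adenovirus, which is at odds with the tissue, age and vector in the other labels. Markers of Kupffer, stellate, endothelial and bile duct cells were read in every library beside those of hepatocytes.

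When amino acids run short, uncharged tRNAs activate the kinase GCN2, which phosphorylates the translation initiation factor eIF2. PERK, PKR and HRI do the same under endoplasmic reticulum stress, viral RNA and heme shortage, hence the name integrated stress response. Phosphorylated eIF2 lowers general protein synthesis but lets the *Atf4* mRNA be translated, and ATF4 then switches on genes for amino acid synthesis, transport and tRNA charging. Much of the control of ATF4 is therefore at translation, which mRNA levels do not show.

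In these *db/db* liver libraries the 10 genes spanned a wide range of levels. *Atf4* mRNA was abundant, at 98.0 ± 12.6 CPM (SD, n = 5 libraries), while the mRNAs of *Asns*, *Psat1* and *Phgdh*, which encode enzymes of asparagine and serine synthesis and are known targets of ATF4, had few reads. *Atf3*, *Trib3* and *Gdf15* differed 3.09 to 3.91 times between the highest and the lowest library, and *Ddit3* and *Sesn2* 1.29 and 1.22 times. Leaving out the highest or the lowest library lowers such a fold by construction. Without replicate 1 the fold fell from 3.77 to 2.36 for *Atf3* and from 3.09 to 1.89 for *Trib3*, and without replicate 3 it fell from 3.91 to 2.27 for *Gdf15*. Without replicate 5 it was 2.56 for *Atf3*, 2.41 for *Trib3* and 2.65 for *Gdf15*. The order of the libraries was not the same for these variable genes, as *Gdf15* was highest in the library where *Atf3* and *Trib3* were lowest.

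ATF4 binds with C/EBP proteins to a composite element whose core is often written TGATGNAA. This core was searched on both strands of the RefSeq promoter windows, each holding 250 bases before the start site and 50 after it, on GRCm38.p6. It was in 3.97% of 32817 windows. The 10 genes had 12 windows, since *Psat1* and *Gdf15* had more than a single window each. The core was in the windows of 4 of the 10 genes, *Atf3*, *Trib3*, *Asns* and *Chac1*, each of which had a single window. Its first base lay 23 bases before the start site in *Asns*, where the match was on the strand of the gene. It lay 110 bases before it in *Atf3* and 193 in *Chac1*, on the opposite strand, and in *Trib3* it was past the start site, on the opposite strand. These start sites are those of RefSeq, and in these 4 genes they differ from the ends of the GENCODE gene spans given with each gene. By those spans the matches in *Asns* and *Atf3* lie inside the gene, and those in *Trib3* and *Chac1* lie outside it. The stretches around the 3 matches before the RefSeq start site are shown because they differ in strand and in distance from the start site. Each is written 5′ to 3′ on the strand of its gene, and the capitals mark the match, which reads TTGCATCA where it is on the opposite strand.
Asns, chr6:7693210-7693254, reverse strand: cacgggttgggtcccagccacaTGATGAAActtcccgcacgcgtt
Atf3, chr1:191183414-191183465, reverse strand: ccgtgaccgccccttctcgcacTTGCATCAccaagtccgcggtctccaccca
Chac1, chr2:119351027-119351078, forward strand: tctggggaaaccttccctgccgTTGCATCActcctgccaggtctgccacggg
The full cAMP response element, TGACGTCA, was in 1.79% of windows and in none of these genes. The endoplasmic reticulum stress element (ERSE) was in 0.119% of windows and likewise in none. A match or its absence describes only these letters in these windows, since such elements also lie in introns and further upstream.

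**Figure D1:**
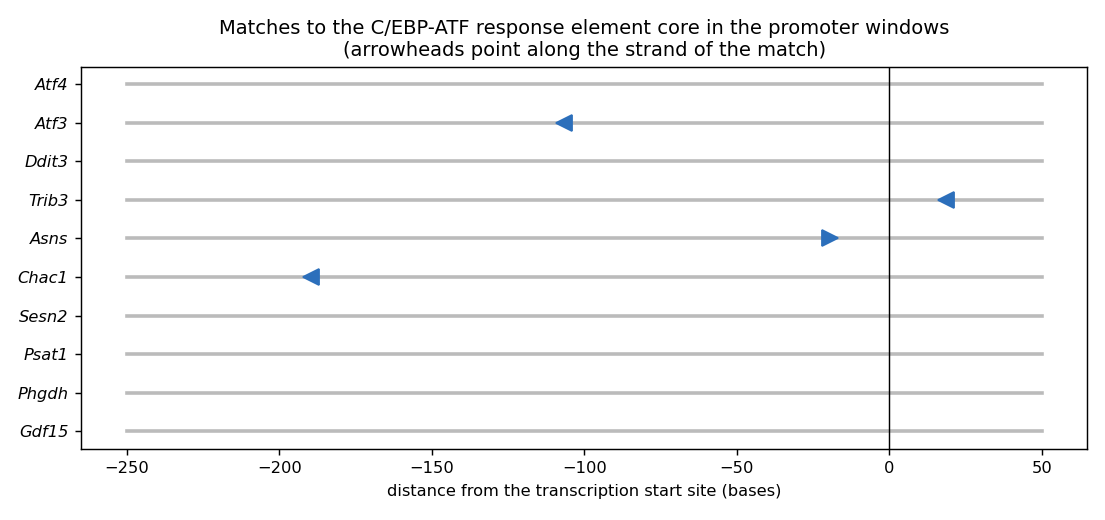
Matches to the C/EBP-ATF response element core in the promoter windows of the 10 genes, by distance from the RefSeq transcription start site in bases. Grey lines are the windows, with 1 line per gene also for *Psat1* and *Gdf15*, which have more than 1 window. Arrowheads point along the strand of the match. *Atf3*, *Trib3*, *Asns* and *Chac1* hold 1 match each, and the other 6 genes hold none.

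Levels were read as CPM, the reads of a gene scaled to all reads counted on genes in a library. The libraries held 19499795 to 35498596 reads. A single read was thus worth between 0.0282 and 0.0513 CPM, and 3 reads, taken as the floor that counting error sets, were worth 0.0845 to 0.154 CPM. The 6 hepatocyte markers summed to 94917 to 129488 CPM. The 7 Kupffer cell markers summed to 130 to 264 CPM, the 7 stellate cell markers to 219 to 300 CPM, the 6 endothelial markers to 98.0 to 202 CPM and the 5 bile duct markers to 33.5 to 53.9 CPM. Most of the hepatocyte, stellate and bile duct sums came from *Alb*, *Dcn* and *Spp1*, with means of 97164, 159 and 35.6 CPM. The 7 lymphocyte markers summed to at most 3.66 CPM and the 4 neutrophil markers to at most 1.63 CPM in any library. In these whole-tissue libraries, fewer cells of a type and less RNA per cell cannot be told apart.

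Per kilobase of exon, *Atf4* was the most abundant of the 10 at 41.5 ± 5.35 CPM per kb (SD, n = 5 libraries), above 94.1% of all genes with a known exon length, whose median was 1.60. *Gdf15* at 6.53 ± 3.12, *Trib3* at 5.14 ± 2.33 and *Sesn2* at 3.53 ± 0.292 CPM per kb followed, and their ranges over the libraries overlapped. *Ddit3* at 2.78 ± 0.269 CPM per kb lay below every value of *Sesn2* and above every value of *Atf3*, which was at 0.959 ± 0.473 CPM per kb. The highest value of *Ddit3*, 3.17 CPM per kb, was above the lowest of *Gdf15*, 2.86, and of *Trib3*, 2.89. *Chac1* at 0.605 ± 0.185 CPM per kb overlapped *Atf3*. Lowest came *Asns* at 0.206 ± 0.0497, *Psat1* at 0.125 ± 0.0440 and *Phgdh* at 0.0307 ± 0.0196 CPM per kb, with neighbours overlapping. *Asns* stood above 25.8% of all genes and *Phgdh* above 12.2%.

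*Atf4*, listed as ENSMUSG00000042406, encodes the central transcription factor of the response and lies on chromosome 15 from 80255184 to 80257541 (GRCm38). It stood at 114, 96.5, 106, 81.3 and 92.1 CPM in replicates 1 to 5. It was highest in replicate 1 and lowest in replicate 4. *Atf3*, ENSMUSG00000026628 on chromosome 1 from 191170296 to 191218039, encodes a stress-induced factor of the same family that is also an immediate early gene. It was far lower and less even, at 3.64, 2.02, 2.28, 1.42 and 0.967 CPM, a mean of 2.07 ± 1.02 CPM (SD, n = 5 libraries). Replicate 1 had 3.77 times the level of replicate 5.

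*Ddit3*, ENSMUSG00000025408 on chromosome 10 from 127290774 to 127296288, encodes CHOP, a factor linked to cell death under prolonged stress. It was at 4.21, 4.48, 4.85, 5.43 and 4.83 CPM, a mean of 4.76 ± 0.461 CPM (SD, n = 5 libraries). Its coefficient of variation of 9.69% was close to the 9.45% that counting error alone gives at this depth, so differences in *Ddit3* between libraries were not detectable beyond it. Of its exons in GENCODE M21, 68 bases overlap exons of *Mars* and 13 bases those of *Gm4189*, both on the opposite strand. A further entry named *Ddit3* on the same strand overlaps 105 bases. Only unambiguous reads were counted, and the library preparation, as described, does not mark strand, so reads in these overlaps can be missing from the level of *Ddit3*.

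*Trib3*, ENSMUSG00000032715 on chromosome 2 from 152337422 to 152344032, encodes a pseudokinase that ATF4 and CHOP induce, that restrains ATF4, and that can bind the insulin signalling kinase AKT. It was at 19.0, 11.6, 10.0, 7.87 and 6.14 CPM in replicates 1 to 5, a mean of 10.9 ± 4.96 CPM (SD, n = 5 libraries). As for *Atf3*, replicate 1 was at the top and replicate 5 at the bottom. *Sesn2*, ENSMUSG00000028893 on chromosome 4 from 132492032 to 132510501, encodes a leucine sensor that holds back the growth kinase complex mTORC1. It was at 13.8, 11.3, 11.5, 12.1 and 12.7 CPM, a mean of 12.3 ± 1.02 CPM (SD, n = 5 libraries).

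*Gdf15*, ENSMUSG00000038508 on chromosome 8 from 70629393 to 70632456, encodes a secreted stress hormone that lowers food intake through a brainstem receptor. It was at 11.3, 9.10, 5.30, 14.0 and 20.7 CPM, a mean of 12.1 ± 5.77 CPM (SD, n = 5 libraries). Replicate 5, the lowest library for *Atf3* and *Trib3*, was the highest for *Gdf15*.

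**Figure D2:**
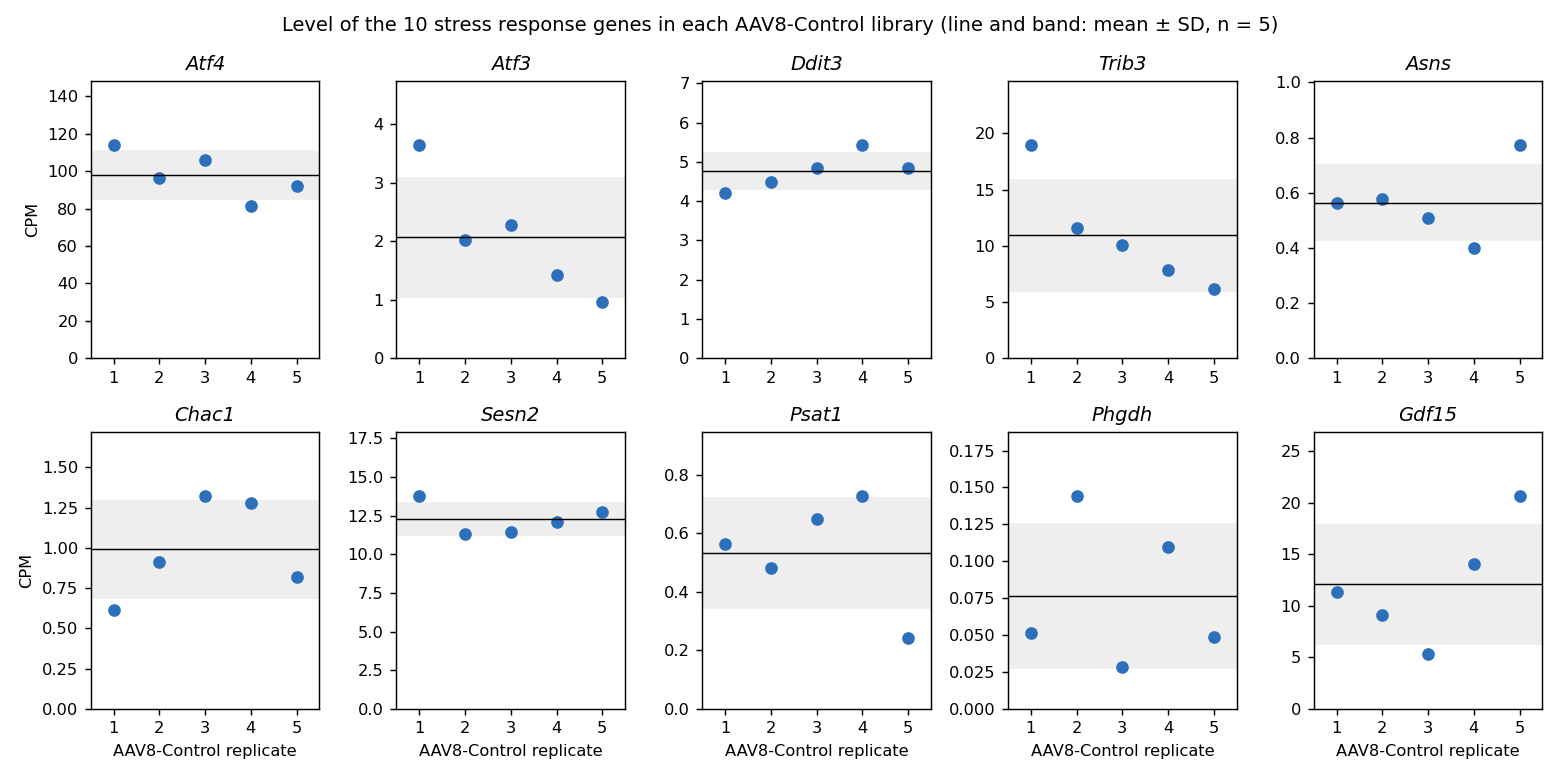
CPM of each of the 10 genes in each of the 5 AAV8-Control libraries, with the mean as a line and the SD as a band (n = 5). Axes differ between panels, and replicate numbers name libraries only. *Atf3* and *Trib3* were highest in replicate 1, at 3.64 and 19.0 CPM, and *Gdf15* in replicate 5, at 20.7 CPM.

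The 4 genes with a mean under 1 CPM encode enzymes. *Asns*, ENSMUSG00000029752 on chromosome 6 from 7675169 to 7693254, encodes asparagine synthetase. It was at 0.564, 0.578, 0.507, 0.401 and 0.773 CPM, from 11 to 18 reads per library. Its coefficient of variation, 24.1%, was below the 27.4% of counting error alone. *Chac1*, ENSMUSG00000027313 on chromosome 2 from 119351229 to 119354381, encodes an enzyme that breaks down glutathione. It was at 0.615, 0.915, 1.32, 1.28 and 0.822 CPM, from 12 to 47 reads, and was lowest in replicate 1, where *Atf3* and *Trib3* were highest. Its coefficient of variation was 30.6%, and counting error alone gives 20.7%.

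*Psat1*, ENSMUSG00000024640 on chromosome 19 from 15904678 to 15947337, and *Phgdh*, ENSMUSG00000053398 on chromosome 3 from 98313170 to 98339990, encode enzymes of serine synthesis. *Psat1* was at 0.564, 0.481, 0.648, 0.729 and 0.242 CPM, from 5 to 23 reads. *Phgdh* had 1 to 3 reads per library and 9 in all, which is at or under the floor of 3 reads in each library. Of the stretches of 50 bases in its longest transcript, 63.1% are also found in transcripts of other genes and pseudogenes. Reads from such stretches do not align to 1 gene alone, so the level of *Phgdh* is uncertain.

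The spread between libraries set 3 of the genes apart. The coefficient of variation was 49.3% for *Atf3*, 47.8% for *Gdf15* and 45.4% for *Trib3*, above that of 99.1%, 98.9% and 98.7% of all genes whose mean reached 1 CPM, which had a median of 10.6%. Counting error alone gives 14.3% for *Atf3*, 5.93% for *Gdf15* and 6.24% for *Trib3*. *Atf4* at 12.9% and *Sesn2* at 8.27% were near the median. Without replicate 1 the values were 35.4% for *Atf3* and 26.9% for *Trib3*, still above 96.0% and 91.6% of genes, and 54.2% for *Gdf15*. For *Gdf15* the value was 36.4% without replicate 3, its lowest library, and 37.2% without replicate 5, its highest. Of the 6 genes whose mean reached 1 CPM, 4 were highest in replicate 1, *Atf4*, *Atf3*, *Trib3* and *Sesn2*, and 37.8% of all genes above that level were highest there too. The 10 immediate early genes, which respond within minutes to handling and stress, summed to 232 CPM in replicate 1 and to 152 to 174 CPM in the other libraries. The sum of the hepatocyte markers, mostly *Alb*, was lowest in replicate 1, at 94917 CPM against 102940 to 129488 CPM in the others. The endothelial markers summed to 202, 142, 173, 98.0 and 137 CPM in replicates 1 to 5. The Kupffer cell markers summed to 207, 264, 249, 157 and 130 CPM in replicates 1 to 5. Both were lowest in replicates 4 and 5, where *Atf3* and *Trib3* were also lowest and *Gdf15* was highest. The part of these genes in the variation of *Atf3*, *Trib3* and *Gdf15* was not tested. With 5 libraries, no correlation between genes is given.

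**Figure D3:**
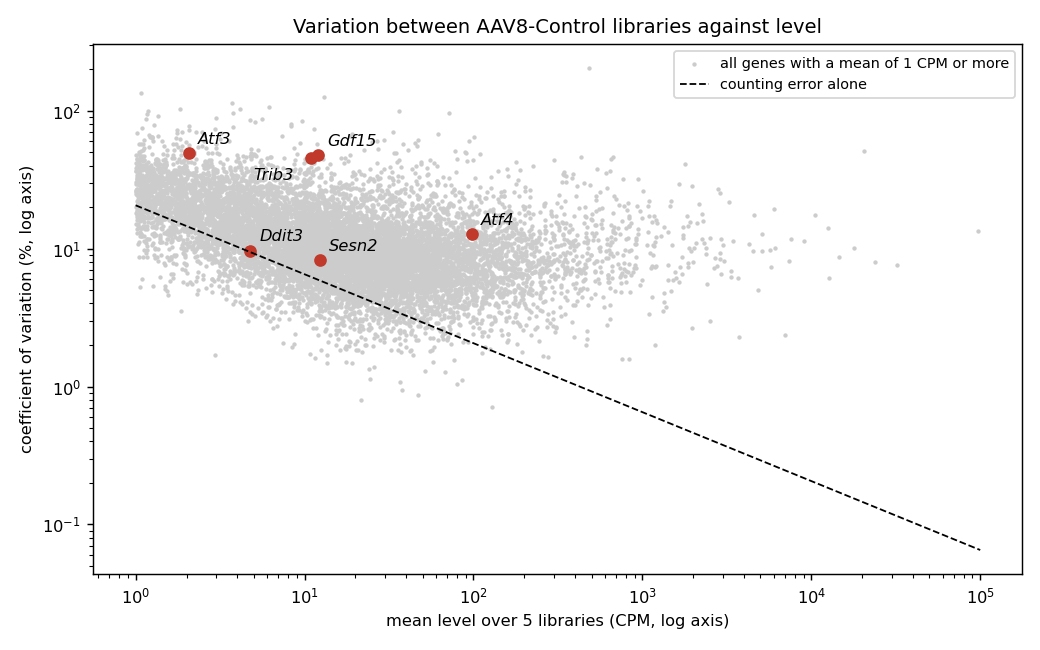
Coefficient of variation over the 5 AAV8-Control libraries against mean CPM, both on log axes, for genes whose mean reached 1 CPM (grey) and the 6 of the 10 genes among them (red). The dashed line is counting error alone. *Atf3*, *Gdf15* and *Trib3*, at 49.3%, 47.8% and 45.4%, lie at the upper edge of the cloud, and *Ddit3*, at 9.69%, lies near the line.

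Other genes of the pathway, in 8 lists, place these levels. All 16 genes of the eIF2 step reached a mean of 1 CPM. Among the kinases, *Eif2ak1*, which encodes the heme-regulated kinase HRI, was the highest at 9.15 ± 0.523 CPM per kb (SD, n = 5 libraries). *Eif2ak2*, for PKR, was at 2.94 ± 0.140, *Eif2ak3*, for PERK, at 1.87 ± 0.196 and *Eif2ak4*, for the amino acid sensor GCN2, at 1.25 ± 0.143 CPM per kb. Of the phosphatase subunits that reverse the step, the constitutive *Ppp1r15b* was at 14.3 ± 1.72 and the ATF4-induced *Ppp1r15a* at 2.47 ± 0.586 CPM per kb.

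Of the partners of ATF4 and related factors, *Atf5* stood out at 248 ± 40.9 CPM per kb, well above *Atf4* itself, and *Nupr1* was the lowest at 0.462 ± 0.0898 CPM per kb. The enzymes of amino acid and one-carbon metabolism fell into a high and a low set. *Cth*, which makes cysteine from cystathionine, was at 276 ± 88.7, *Gpt2*, an alanine aminotransferase, at 147 ± 21.5, and *Shmt2*, the mitochondrial serine hydroxymethyltransferase, at 82.8 ± 5.63 CPM per kb. Of the 12 in this list, 3 had a mean under 1 CPM, *Mthfd2*, *Pycr1* and *Aldh1l2*, as had *Asns*, *Psat1* and *Phgdh*. *Psph*, the last enzyme of serine synthesis, was at 1.09 ± 0.128 CPM per kb.

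The transporters were led by the glutamine carrier *Slc38a3* at 323 ± 28.1 and by *Slc38a4* at 287 ± 44.2 CPM per kb. *Slc7a2*, which takes up arginine and other cationic amino acids, was at 44.6 ± 10.7 CPM per kb. *Slc3a2*, the heavy chain that carries leucine and cystine transporters to the membrane, was very even, with 43.3 to 45.3 CPM in the 5 libraries. *Slc7a11*, the cystine carrier that ATF4 induces in many cells, was at a mean of 0.0570 CPM, under the value of 3 reads. The 20 tRNA synthetases all reached a mean of 1 CPM, with a median coefficient of variation of 6.91%. They ran from *Tars* at 25.2 ± 3.18 to *Cars* at 2.92 ± 0.217 CPM per kb. By CPM, without division by exon length, *Aars* had the highest mean at 198 and *Farsa* the lowest at 14.2.

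Of 16 other effectors, *Sqstm1*, an autophagy receptor, at 134 ± 7.92 and *Herpud1*, of endoplasmic reticulum protein degradation, at 133 ± 20.4 CPM per kb were the highest. *Fgf21*, which like *Gdf15* encodes a secreted stress hormone, was at 2.34 ± 1.17 CPM per kb, with a coefficient of variation of 49.9%, above 99.1% of genes. The 11 chaperones and targets of the endoplasmic reticulum were led by *Calr* at 205 ± 7.75 and *Hspa5*, the chaperone BiP, at 114 ± 9.58 CPM per kb. Their median coefficient of variation was 9.54%, and 4 of the 11 were above the median of all genes, with *Sdf2l1* at 27.4%. The median was 31.2% over 9 immediate early genes.

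**Figure D4:**
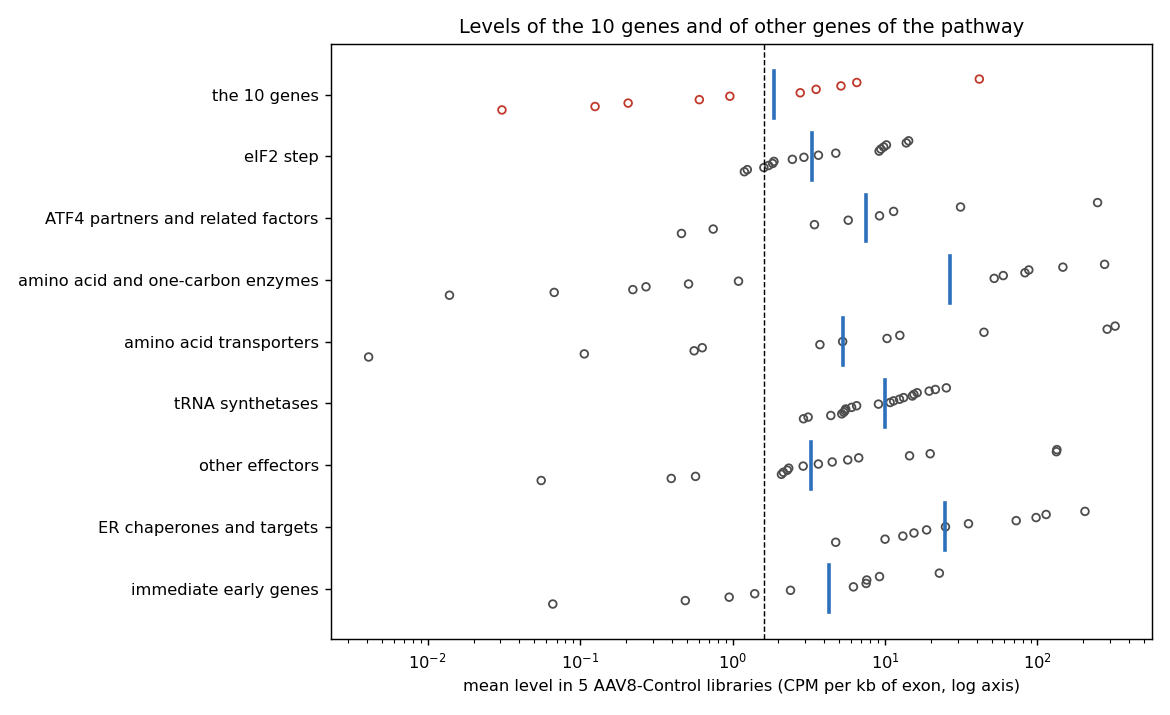
Mean level per kilobase of exon in the 5 AAV8-Control libraries, on a log axis, of the 10 genes (red) and of other pathway genes by list, 1 point per gene, with list medians in blue. The dashed line is the median of all genes, 1.60 CPM per kb. The 10 genes run from *Phgdh* at 0.0307 to *Atf4* at 41.5 CPM per kb.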

How the data were processed

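The 5 AAV8-Control libraries of *db/db* liver were analysed, grouped by the labels. The comparison between groups, with its tests, is not reported here. The labels do not say that replicates are separate mice, so the SD measures only the spread between these libraries. The authors selected poly-A RNA, aligned single reads of 50 bases with STAR 2.0.4b to Ensembl release 76 (GRCm38.p2), counted unique reads with featureCounts 1.4.5 and deposited CPM values. Dividing by the CPM of 1 read gave whole reads for 100% of values (within 0.01 reads). Means, SD and coefficients of variation were taken on CPM, and percentiles of variation over genes whose mean level reached 1 CPM. Counting error was computed as Poisson error from the CPM of a single read. Exon lengths and gene positions came from GENCODE M21 (GRCm38). An exon length was that of the merged exons of all annotated transcripts of a gene. The order of genes per kilobase therefore depends on which transcripts are annotated. Alternatives were DESeq2 1.42.0 size factors, TMM factors from edgeR 4.0.16, no filter, at least 10 reads in every library, and each library left out. The planned tests, alternatives and rule for named genes all belonged to the comparison between groups. The measures of level and variation given here, and these alternatives, were chosen after seeing the data, as were the genes named from the pathway lists, with no fixed rule. The 10 genes and the lists were chosen with earlier results of these data known. No 2 libraries were near duplicates (lowest chi-square per degree of freedom 16.8).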

Additional observations from a re-analysis of the deposited data

How the results depend on the processing

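These alternatives were chosen after seeing the data. The mean CPM of each of the 10 genes moved by less than 1 SD with DESeq2 size factors and with TMM factors. With 1 of 5 libraries left out a mean cannot move by 1 SD, so that says nothing about stability, and the mean ran from 1.67 to 2.34 CPM for *Atf3*, from 8.91 to 12.1 CPM for *Trib3* and from 9.94 to 13.8 CPM for *Gdf15*. Only the 6 of the 10 genes whose mean reached 1 CPM were ranked by variation, and 3 of these were above the 90th percentile. With 1 library left out at a time the count was 3 to 4. The gene added without replicate 2 or replicate 5 was *Chac1*, which was ranked only where its mean reached 1 CPM. The set of ranked genes thus changed between settings. The count was 4 among genes with at least 10 reads in every library, where the ranked set also differed. Without a filter the count was 0, because low genes with few reads then entered the percentiles. No paired analysis was possible because no groups are compared. Depth limits *Asns*, *Chac1*, *Psat1* and *Phgdh*, and counting error, as given, leaves out other technical error.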
